A study of Homo sapiens with 9 samples.

Results

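The messenger RNAs of 10 selenoprotein genes were followed in K562 cells, a human erythroleukaemia line, after depletion of either of 2 factors of nonsense-mediated decay (NMD). The genes were listed by name as selenoprotein genes whose recoded stop codons can expose them to NMD: GPX1, GPX4, SELENOW, SELENOH, SELENOT, TXNRD2, SELENOK, SELENOS, TXNRD1 and SEPHS2. They are 10 of the 25 human selenoprotein genes and of 58214 genes with matched transcripts. All 9 libraries were poly(A) RNA of K562 cells transfected with small interfering RNA (siRNA) and harvested on day 4. The 3 SCR libraries received non-targeting siRNA, 3 libraries (DHX34-kd) received siRNA against the helicase DHX34, and 3 (UPF1-kd) received siRNA against the core NMD helicase UPF1. All groups share the same line and were transfected, and the siRNA left part of the target RNA in place. The methods call the replicates biological, and the p-values measure the spread between these libraries.

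A selenoprotein contains selenocysteine, an amino acid inserted at an in-frame UGA codon that is otherwise a stop. Insertion needs a stem-loop in the same mRNA, the SECIS element, which is bound by SECISBP2, and a dedicated elongation factor, EEFSEC, that delivers the charged tRNA. When the UGA is read as a stop well before an exon junction, the mRNA can become a substrate of NMD, the pathway in which UPF1 acts on ribosomes that terminate too early. Such mRNAs are known to respond to selenium supply, and GPX1 and SELENOW are classical examples.

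The placement of the UGA differed between the members. In the canonical transcript of 6 members the UGA lay at least 50 bases before the last exon junction, the usual limit for a stop to count as premature. These were GPX1, GPX4, SELENOW, SELENOH, SELENOT and TXNRD2. In SELENOK, SELENOS, TXNRD1 and SEPHS2 it did not. The codons are shown with 12 bases on each side, read 5′ to 3′ from the GENCODE 44 transcripts, because their place is what separates the members. Capitals mark the selenocysteine codon, written as TGA.
GPX1: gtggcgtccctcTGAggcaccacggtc
GPX4: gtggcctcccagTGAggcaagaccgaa
SELENOW: tattgtggcgctTGAggctacaagtcc
SELENOH: cattgcactagcTGAcgcgtctatggg
SELENOT: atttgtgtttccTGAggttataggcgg
TXNRD2: gtgacaggctgcTGAgggtaagcgcca
SELENOK: atggctggtggaTGAggaaggtaaatg
SELENOS: tcatctggcggaTGAggctaagaatct
TXNRD1: caggctggctgcTGAggttaagcccca
SEPHS2: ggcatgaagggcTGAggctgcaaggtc

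On GRCh38 these codons are exonic and lie inside the annotated coding sequence. The GPX1 codon (chr3:49358132-49358134, minus strand) is codon 49 of 203 in exon 1 of 2 and ends 105 bases before the last junction. The GPX4 codon (chr19:1105403-1105405, plus strand) is codon 73 of 197 in exon 3 of 7, 342 bases before it. SELENOW has its codon at chr19:47780732-47780734 on the plus strand, codon 13 of 87 in exon 2 of 6 and 243 bases before the junction. SELENOH has it at chr11:57741816-57741818 on the plus strand, codon 44 of 122 in exon 2 of 4 and 267 bases before. SELENOT has the longest distance of the 10, 470 bases, from codon 49 of 195 in exon 2 of 6 (chr3:150622392-150622394, plus strand). In these 5 genes the codon is early or midway in the reading frame.

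In TXNRD2 the UGA (chr22:19877111-19877113, minus strand) is codon 523 of 524 in exon 17 of 18 and ends 71 bases before the last junction. The ordinary stop of that transcript follows codon 524 and itself ends 65 bases before the junction. SELENOK (chr3:53885831-53885833, minus strand) has codon 92 of 94 in exon 4 of 5, only 5 bases before the junction. The codons of SELENOS (chr15:101272777-101272779, minus strand, codon 188 of 189) and TXNRD1 (chr12:104348413-104348415, plus strand, codon 648 of 649) lie in the last exons, the sixth and the seventeenth. SEPHS2 (chr16:30445548-30445550, minus strand, codon 60 of 448) has a single exon and therefore no junction. The base after the codon was G in 9 of the 10 members, with SELENOH having C. It was G in 4 of 15 first UGA codons of the other selenoprotein genes and in 38.7% of 9479 ordinary TGA stops of canonical coding transcripts.

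Levels were first compared in SCR in TPM, a measure of abundance relative to all transcripts that corrects for transcript length. GPX4, which reduces lipid hydroperoxides in membranes, was the most abundant at 487.3 ± 1.70 TPM (SD, n = 3), followed by the nucleolar oxidoreductase SELENOH at 165.3 ± 6.24. The cytosolic thioredoxin reductase TXNRD1 was at 111.0 ± 3.53 TPM and the small redox protein SELENOW at 101.1 ± 6.74, with overlapping libraries. SEPHS2, the enzyme that makes selenophosphate for selenocysteine synthesis, was at 74.3 ± 2.28 TPM. SELENOS, an endoplasmic reticulum (ER) membrane protein, was at 55.1 ± 1.62 TPM, the mitochondrial reductase TXNRD2 at 51.5 ± 3.25 and the ER protein SELENOT at 47.0 ± 5.82, and each of these neighbours overlapped. SELENOK, an ER membrane protein that works with the palmitoyltransferase ZDHHC6, was at 20.5 ± 1.19 TPM. GPX4 alone held between 43.7% and 43.8% of the summed TPM of the 10 genes in SCR and between 38.4% and 40.1% in the UPF1 knockdown.

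GPX1, the cytosolic glutathione peroxidase, was near the floor of detection. Its expected counts were 0, 13 and 0 in SCR, 16, 1 and 11 after DHX34 depletion and 10, 14 and 2 after UPF1 depletion. No fold change is given for it. The deposited tables held 5 of its 14 GENCODE 44 transcripts, and its processed pseudogene GPX1P1 had 3 to 17 counts. Of the exonic bases of GPX1 39.9% are shared with another annotated protein-coding gene on the same strand, ENSG00000290318. In every library 98.1% of the counts matched a GENCODE transcript, and whether GPX1 reads were among the unmatched rest was not tested.

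Library totals ran from 73478797 to 103625443 expected counts. DHX34 RNA fell by 1.23 on the log2 scale in its own knockdown and UPF1 RNA fell by 1.31 in its own (edgeR adjusted p in both under the limit of 0.005). All 9 erythroid markers listed for K562 cells were present at 33.0 TPM or more. In the UPF1 knockdown 6 of the 9 were called down, at log2 fold changes from -1.11 to -0.29, and TFRC up at 0.40, and in the DHX34 knockdown HBE1 was called down at -0.37. Of 5 markers of other cell types, CD3E and ALB were at most 0.21 TPM, and EPCAM was between 68.1 and 80.4 TPM in every group. The other 4 summed to between 1.99 and 2.78 TPM in SCR, 4.34 and 4.93 in the DHX34 knockdown and 1.65 and 1.90 in the UPF1 knockdown. COL1A1 was called up in the DHX34 knockdown, at 2.78, and EPCAM down in the UPF1 knockdown, at -0.26. The part of these markers in the results was not tested. In bulk RNA, fewer cells of a kind and less RNA per cell cannot be told apart.

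Expression changes were tested on counts, given here as CPM (counts relative to the library total, scaled by the TMM method), with edgeR's quasi-likelihood test over all genes, and a gene was called at an adjusted p of at most 0.005. The median change of all genes was 0.02 on the log2 scale in both comparisons with SCR. On the TPM scale it was 0.17 in the UPF1 knockdown and 0.13 in the DHX34 knockdown, so small changes depend on the scale. By limma on log2(TPM + 0.5) the calls over all genes split into 3213 up and 282 down in the UPF1 knockdown, against 2131 and 2214 by edgeR. With DHX34 depleted they split into 786 and 93, against 942 and 826. After centring each library on its median, limma called 723 genes up and 2158 down, and 118 up and 513 down. The median change of all genes was then -0.12 in the UPF1 knockdown and -0.11 in the DHX34 knockdown, so this scale is shifted as well.

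In the UPF1 knockdown 1 of the 10 members was called up and 4 down. TXNRD2 rose by 0.37 on the log2 scale, while GPX4, SELENOK, SELENOT and SEPHS2 had log2 fold changes from -0.32 to -0.21. SELENOW, SELENOH, SELENOS and TXNRD1 did not pass the test, and GPX1 passed the filter at the counts given above but was not called. Over all 17184 genes tested, 12.4% were called up and 12.9% down, or 25.3% in either direction. The median log2 fold change of the 9 members other than GPX1 was -0.06, against 0.02 for all genes. These directions depend on the scale. On uncentred TPM 5 members were called up and 0 down, and on centred TPM 1 up and 3 down (limma).

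TXNRD2, which keeps mitochondrial thioredoxin reduced, had 81.0, 85.2 and 83.2 CPM in SCR and 107.3, 108.8 and 107.5 CPM in the UPF1 knockdown. All UPF1 knockdown libraries lay above all SCR libraries. The change came to 0.37 on the log2 scale (SE 0.03, adjusted p by edgeR 3.21e-06). The call held in all 18 alternative settings, with log2 fold changes from 0.20 to 0.49.

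GPX4 had 284.5, 275.6 and 287.1 CPM in SCR and 248.4, 249.9 and 237.8 CPM in the UPF1 knockdown. The knockdown libraries were all lower, by 0.21 on the log2 scale (log2 fold change -0.21, SE 0.03, edgeR adjusted p 0.000119). With offsets for the trend with gene length the log2 fold change was -0.11 (edgeR adjusted p 0.00658), and on the uncentred TPM scale it was -0.0018 (limma adjusted p 0.962), so the call did not hold there.

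SELENOT had 88.6, 85.9 and 90.8 CPM in SCR and 75.46, 73.02 and 78.01 in the UPF1 knockdown. The groups did not overlap, and the log2 fold change was -0.24 (SE 0.04, adjusted p by edgeR 0.00023). SELENOK had 22.7, 21.6 and 24.7 CPM in SCR and 18.4, 18.4 and 18.7 in the UPF1 knockdown, again without overlap. The change came to -0.32 on the log2 scale (SE 0.05, adjusted p by edgeR 0.000508). Both were still lower than SCR but no longer called with length-scaled counts, where SELENOT was at -0.26 (edgeR adjusted p 0.0324) and SELENOK at -0.33 (edgeR adjusted p 0.00572). On uncentred TPM they were at -0.03 and -0.11 (limma adjusted p 0.799 and 0.153).

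SEPHS2 had 171.8, 175.0 and 181.3 CPM in SCR and 141.5, 148.9 and 154.9 in the UPF1 knockdown. All knockdown libraries were lower, with a log2 fold change of -0.25 (SE 0.04, adjusted p by edgeR 0.000122). On uncentred TPM it was -0.05 (limma adjusted p 0.354), and on centred TPM -0.34 (limma adjusted p 0.000608), where all genes shifted by -0.12. SEPHS2 has a single exon, so that no exon junction lies after its UGA.

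SELENOW had 73.3, 63.8 and 65.4 CPM in SCR and 79.7, 71.9 and 74.7 CPM in the UPF1 knockdown. The groups overlapped, and the log2 fold change of 0.15 (SE 0.06, adjusted p by edgeR 0.0448) was not called. SELENOH had 105.2, 96.1 and 98.1 CPM in SCR and 104.6, 109.3 and 111.1 in the UPF1 knockdown, a log2 fold change of 0.11 (SE 0.04, adjusted p by edgeR 0.0403) with overlapping groups. With the length offsets both passed the test, at 0.24 (edgeR adjusted p 0.00119) and 0.21 (edgeR adjusted p 0.00046). Whether either was called thus depended on the setting.

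SELENOS, which recruits the ATPase VCP to the ER membrane, had 43.97, 43.45 and 46.02 CPM in SCR and 43.9, 46.5 and 44.2 in the UPF1 knockdown. The log2 fold change was 0.00, with a 95% interval from -0.08 to 0.09, and its sign changed between settings. On uncentred TPM SELENOS was called up (limma), where all genes shifted by 0.17. TXNRD1 had 299.9, 302.7 and 316.5 CPM in SCR and 292.4, 294.1 and 297.6 in the UPF1 knockdown. These groups did not overlap, but the log2 fold change of -0.06 (SE 0.03, adjusted p by edgeR 0.0845) was not called. On uncentred TPM TXNRD1 went the other way, at 0.28 (limma adjusted p 0.000388), against a shift of 0.17 in all genes. With the length offsets TXNRD1 was called down, so 2 settings called it in opposite directions. In the UPF1 comparison 6 of the 9 members did not overlap, beside 50.5% of all genes tested.

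**Figure D1:**
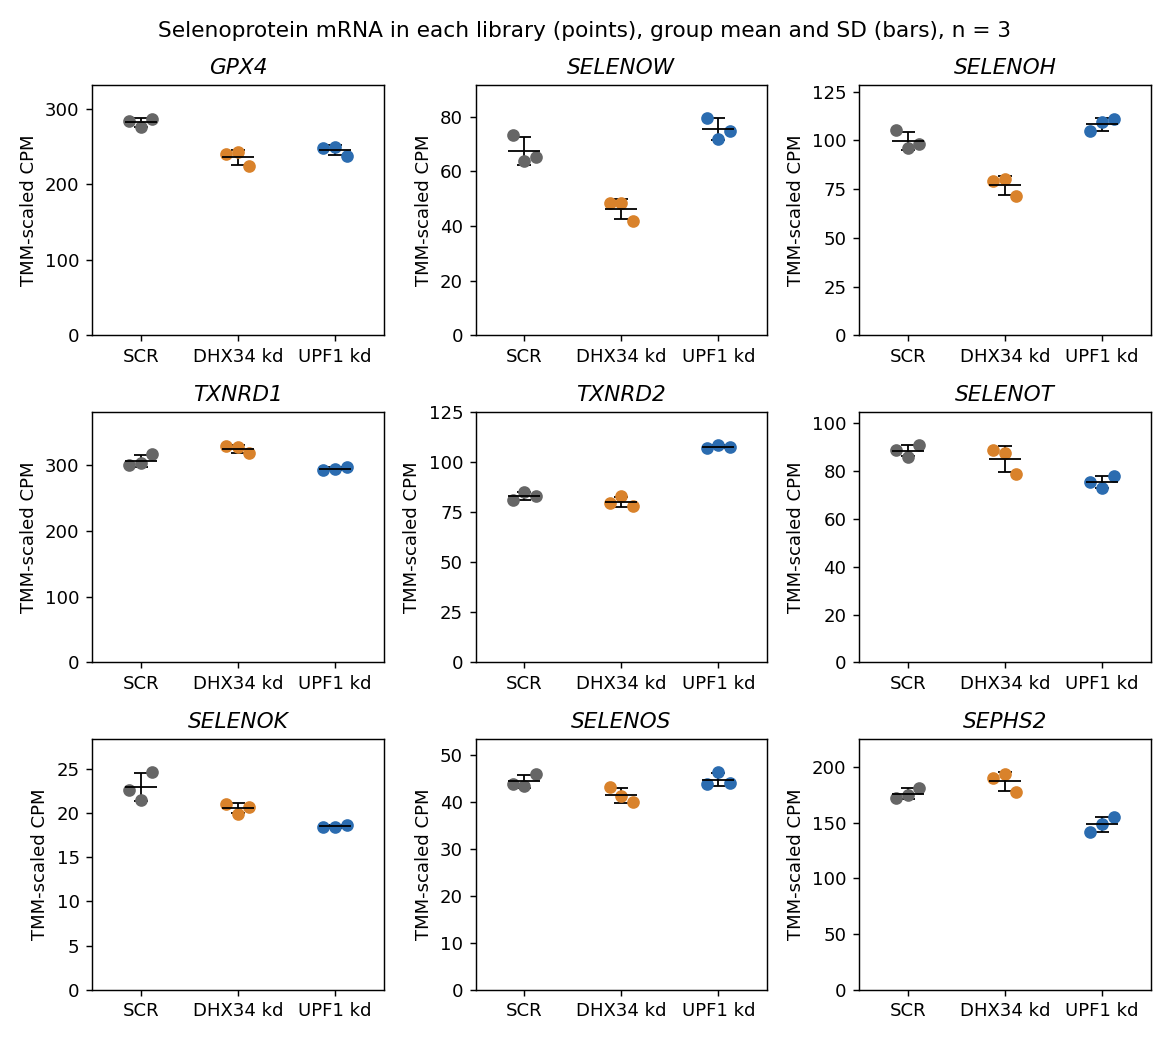
TMM-scaled CPM of the 9 expressed members in each library (points) for SCR, DHX34 knockdown and UPF1 knockdown, with group mean and SD (bars, n = 3) and axes starting at 0. TXNRD2 stands at 107.3 to 108.8 CPM in the UPF1 knockdown and at 78.0 to 85.2 CPM in the other libraries, while SELENOW stands at 41.97 to 48.50 CPM in the DHX34 knockdown, below every other library.

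Depletion of DHX34 gave another set of changes. By edgeR SELENOW, SELENOH and GPX4 were called down, and no member was called up. On uncentred TPM 2 members were called up and 1 down, and on centred TPM 0 up and 3 down (limma). The other 6 expressed members did not pass the edgeR test. Over all 17004 genes tested, 5.54% were called up and 4.86% down, 10.4% in either direction. The median log2 fold change of the 9 members was -0.10, against 0.02 for all genes. The count over all genes, 1768, was 811, 1160 and 781 without SCR replicates 1, 2 and 3. It was 909, 1082 and 1785 without DHX34 knockdown replicates 1, 2 and 3. The count of members was 2 or 3 in the same fits.

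SELENOW had 48.5, 48.4 and 41.97 CPM in the DHX34 knockdown, all below the SCR libraries given above. The change of -0.55 on the log2 scale (SE 0.07, adjusted p by edgeR 0.000307) was the largest of the members in this comparison. It stayed negative in all 18 alternative settings and was called in 17. The exception was limma on log2(TPM + 1), at -0.40 with a limma adjusted p of 0.00501.

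SELENOH had 79.0, 80.4 and 71.3 CPM in the DHX34 knockdown, without overlap with SCR. The log2 fold change was -0.38 (SE 0.05, adjusted p by edgeR 0.000705), and -0.27 with the length offsets (edgeR adjusted p 0.00108). On uncentred TPM it was -0.23 (limma adjusted p 0.00707), which did not pass. Of the exonic bases of SELENOH 20.8% are shared with another annotated protein-coding gene on the same strand, ENSG00000254732.

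GPX4 had 240.3, 242.8 and 224.2 CPM in the DHX34 knockdown, again below SCR. The log2 fold change was -0.26 (SE 0.04, adjusted p by edgeR 0.00113). This call was lost with the length offsets, at -0.16 (edgeR adjusted p 0.00814). It was also lost without SCR replicate 1, at -0.26 (edgeR adjusted p 0.00608), and without SCR replicate 3, at -0.25 (edgeR adjusted p 0.00622). On uncentred TPM the value was -0.09 (limma adjusted p 0.0257).

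The remaining members gave small differences in the DHX34 knockdown. SELENOK had 21.1, 19.9 and 20.8 CPM and a log2 fold change of -0.16 (SE 0.06, adjusted p by edgeR 0.0708). SELENOS had 43.2, 41.2 and 40.1 CPM, a log2 fold change of -0.10 (SE 0.05, adjusted p by edgeR 0.138). Both lay below the SCR libraries without being called.

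TXNRD1 had 329.0, 327.6 and 318.1 CPM, all above SCR, with a log2 fold change of 0.08 (SE 0.04, adjusted p by edgeR 0.122). SEPHS2 had 189.7, 193.8 and 177.5 CPM and a log2 fold change of 0.09 (SE 0.04, adjusted p by edgeR 0.175), with overlap. On uncentred TPM these last 2 genes passed the test at 0.32 and 0.23 (limma adjusted p 0.00278 and 0.00443), where all genes shifted by 0.13. With centring SEPHS2 was at -0.01, where all genes shifted by -0.11. The sign of its change in the DHX34 knockdown thus depends on the scale.

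SELENOT had 88.6, 87.3 and 78.6 CPM (log2 fold change -0.06, edgeR adjusted p 0.419). TXNRD2 had 79.5, 83.2 and 78.0 CPM (log2 fold change -0.05, edgeR adjusted p 0.39). Both overlapped SCR, and both had a positive log2 fold change on uncentred TPM, at 0.11 and 0.13. In the DHX34 comparison 6 of the 9 members did not overlap, 5 below and 1 above SCR, beside 41.5% of all genes tested.

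The comparisons with SCR share their control libraries, so the knockdowns were also compared directly. SELENOW, SELENOH and TXNRD2 were higher in the UPF1 knockdown than in the DHX34 knockdown, and SEPHS2 was lower. Over all 17435 genes tested, 9.89% were called higher and 7.47% lower in the UPF1 knockdown, 17.4% in all. The count over all genes, 3026, was 1959, 1915 and 1970 without UPF1 knockdown replicates 1, 2 and 3. When any 1 library was left out, the count over all genes was between 1915 and 3865 and that of members between 4 and 6. The log2 difference of SELENOW was 0.72 (SE 0.06, edgeR adjusted p 6.41e-06), of SELENOH 0.51 (SE 0.05, edgeR adjusted p 1.28e-05) and of TXNRD2 0.44 (SE 0.03, edgeR adjusted p 3.75e-06). These 3 calls held in all 18 alternative settings, from 0.68 to 0.79 for SELENOW, 0.47 to 0.55 for SELENOH and 0.32 to 0.44 for TXNRD2 over the settings that kept all libraries. SEPHS2 differed by -0.32 (SE 0.04, edgeR adjusted p 0.000179), a call lost only on centred TPM (limma adjusted p 0.00543).

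GPX4, lower than SCR in both knockdowns, differed between them by 0.07 with a 95% interval from -0.01 to 0.15 (edgeR adjusted p 0.193). TXNRD1 was lower in the UPF1 knockdown by 0.13 on the log2 scale, just short of the call (log2 difference -0.13, edgeR adjusted p 0.00576). Without DHX34 knockdown replicate 3, both TXNRD1, at -0.16 (edgeR adjusted p 0.000242), and SELENOT, at -0.22 (edgeR adjusted p 0.000471), were called lower. With all libraries SELENOT was at -0.16 (edgeR adjusted p 0.0264), SELENOK at -0.14 (edgeR adjusted p 0.0479) and SELENOS at 0.12 (edgeR adjusted p 0.0442). Here 8 of the 9 members did not overlap, 4 above and 4 below, beside 45.7% of all genes tested.

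**Figure D2:**
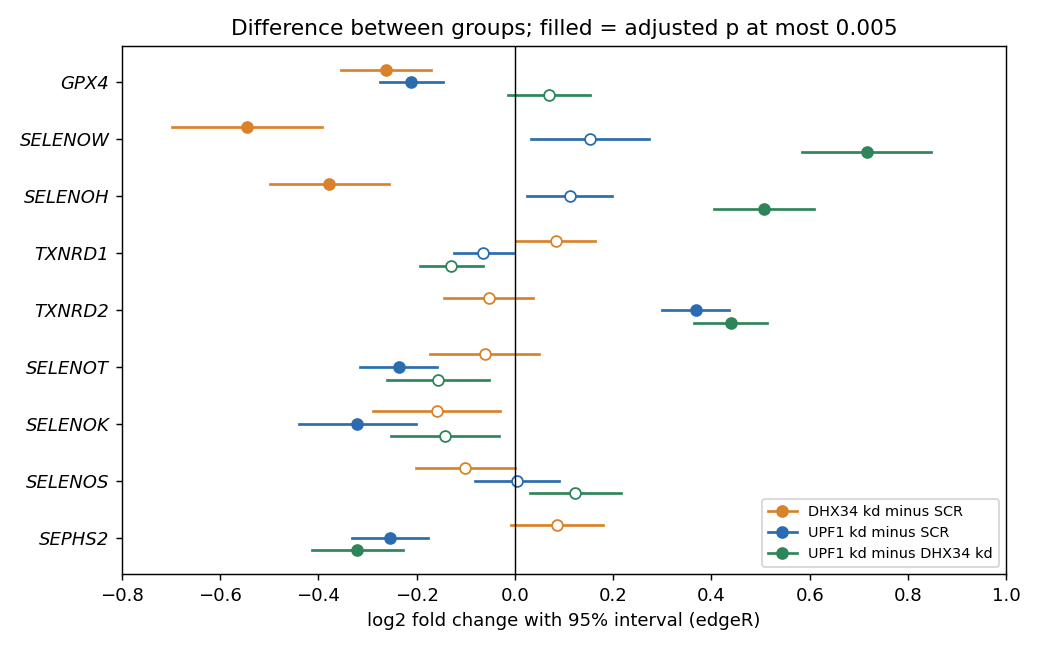
Log2 fold change with its 95% interval (edgeR) of the 9 expressed members for DHX34 knockdown minus SCR, UPF1 knockdown minus SCR and UPF1 knockdown minus DHX34 knockdown, with filled points at an adjusted p of at most 0.005. SELENOW and SELENOH lie left of 0 in the DHX34 knockdown, at -0.55 and -0.38, and right of 0 in the direct comparison, at 0.72 and 0.51.

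The members were then read by the place of their UGA. Of the 5 expressed members with the codon at least 50 bases before the last junction, 1 was called up and 2 down in the UPF1 knockdown, and their median change was 0.11 on the log2 scale. Of the 4 others, none was called up and 2 down, with a median of -0.16 (edgeR, same threshold). Over all genes tested 12.4% were called up and 12.9% down. In the DHX34 knockdown the first class had 3 genes called down and a median of -0.26, and the second had no call and a median of -0.01. Here 5.54% of all genes were called up and 4.86% down. In the direct comparison the first class had 3 genes higher in the UPF1 knockdown and none lower, with a median of 0.44. The second had none higher and 1 lower, with a median of -0.14. Of all genes 9.89% were called higher and 7.47% lower. These counts moved with the setting. With the length offsets SELENOW and SELENOH were also called up in the UPF1 knockdown, GPX4 was not called and TXNRD1 was called down. On uncentred TPM SELENOS and TXNRD1, of the second class, were called up there (limma). The distance itself did not order the changes: SELENOT, at 470 bases, fell in the UPF1 knockdown, while TXNRD2, at 71 bases, rose.

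Over all 25 selenoprotein genes, 15 had the codon upstream by this limit. Of the 10 of these that were expressed, GPX1 aside, 2 were called up and 3 down in the UPF1 knockdown, with a median of 0.05. Of 8 expressed genes with the codon elsewhere, none was called up and 3 down, with a median of -0.11. In the DHX34 knockdown the upstream genes had none called up and 3 down, with a median of -0.06, and the others had no call and a median of 0.07. In the direct comparison 4 upstream genes were higher and 1 lower in the UPF1 knockdown, with a median of 0.18, and of the others none was higher and 2 lower, with a median of -0.14. These counts stand beside the shares of all genes given above, and no test between the classes was made.

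**Figure D3:**
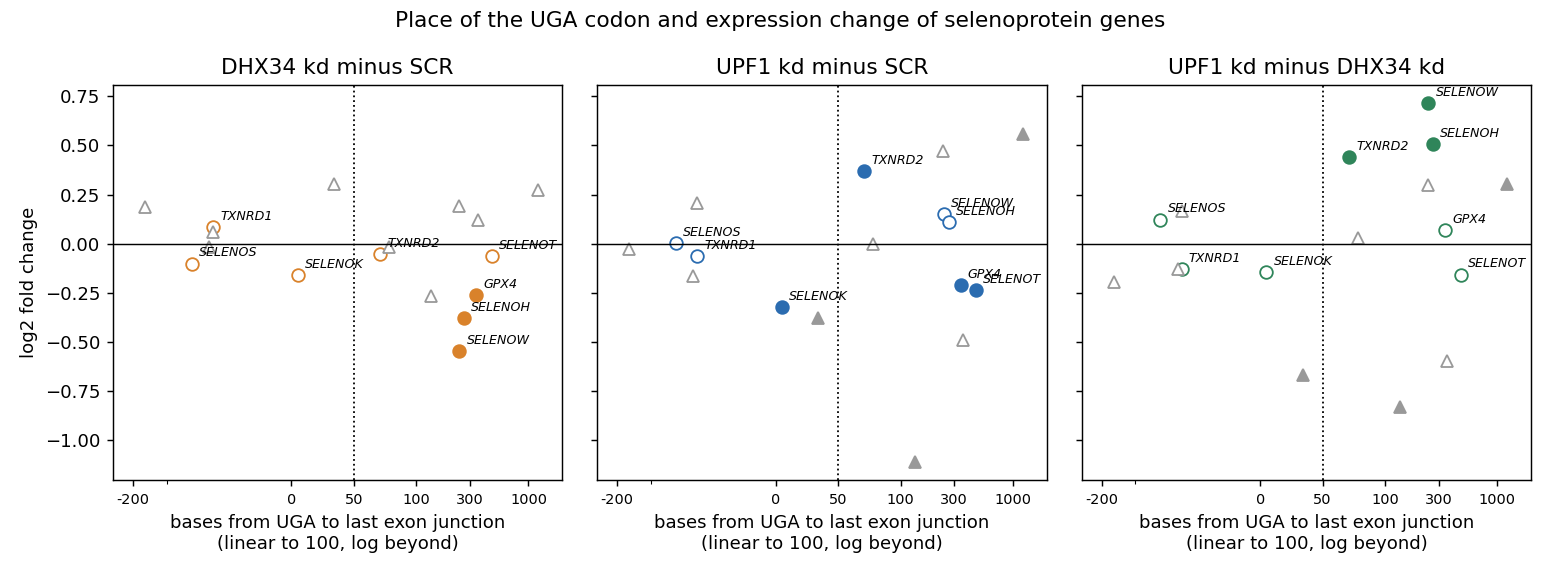
Log2 fold change (vertical axis) of expressed selenoprotein genes with at least 1 junction against the bases from the end of the UGA codon to the last exon junction (horizontal axis, linear to 100 and logarithmic beyond), with circles for members, grey triangles for other selenoprotein genes, filled symbols for called genes and a dotted line at 50 bases. To the right of the line the members spread from -0.24 to 0.37 in the UPF1 knockdown and from -0.55 to -0.05 in the DHX34 knockdown.

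At the level of isoforms 95 transcripts of the 10 genes were listed, 54 of them protein-coding, 25 retained introns and 5 annotated as NMD substrates. In the UPF1 knockdown 59 passed the filter and 1 was called, down, beside 0.97% called up and 1.62% called down of 62497 transcripts tested. This was TXNRD1-201, the most abundant TXNRD1 isoform. In the DHX34 knockdown none of 57 was called by edgeR (3 up and 6 down at an unadjusted p under 0.05, and 4 called by DESeq2), beside 0.0348% up and 0.0116% down of 60416 tested, of which 15.2% had an unadjusted p under 0.05. In the direct comparison none of 60 was called by edgeR (8 higher and 8 lower in the UPF1 knockdown at an unadjusted p under 0.05), beside 0.732% higher and 0.32% lower of 64325 tested, of which 18.6% had an unadjusted p under 0.05. A shift between isoforms that share sequence can come from how reads were assigned as well as from the RNA.

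TXNRD1-201 was at 56.2, 59.0 and 54.6 TPM in SCR, 60.4, 60.5 and 55.2 after DHX34 depletion and 58.5, 56.0 and 56.6 after UPF1 depletion. On the count scale its log2 fold change in the UPF1 knockdown was -0.24 (SE 0.03, edgeR adjusted p 0.00409). On uncentred TPM it was 0.01 (limma adjusted p 0.867), and the edgeR call was lost when any 1 of the 6 libraries was left out. Its share of TXNRD1 TPM was 51.0% ± 2.70 in SCR, 42.5% ± 3.51 after DHX34 depletion and 42.4% ± 1.19 after UPF1 depletion (SD, n = 3). Its UGA is in the last exon, as in the canonical transcript.

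Among the most abundant isoforms, GPX4-210 held 86.8% ± 1.30 of GPX4 TPM in SCR, 85.8% ± 1.74 after DHX34 depletion and 87.0% ± 0.215 after UPF1 depletion (SD, n = 3). Its UGA is 342 bases before the last junction, and its levels were 414.2, 428.6 and 426.6 TPM in SCR and 394.5, 389.6 and 390.5 TPM in the DHX34 knockdown. SELENOH-204 held between 95.3% and 97.6% of SELENOH as a group mean, and SEPHS2-201 is the single isoform of SEPHS2. The mean effective length of the 9 main isoforms differed between a knockdown and SCR by -2.95% to 0.768%.

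Of the transcripts annotated as NMD substrates, 2 of the 5 had a mean of at least 1 TPM. SELENOK-203 was at 4.17, 3.73 and 4.51 TPM in SCR, 3.76, 1.90 and 1.56 after DHX34 depletion and 2.76, 4.14 and 4.17 after UPF1 depletion. TXNRD1-213 was at 3.61, 2.44 and 2.46 TPM in SCR, 3.60, 3.94 and 3.33 after DHX34 depletion and 4.03, 3.45 and 3.95 after UPF1 depletion. Neither was called, and both overlapped SCR in each knockdown.

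The share of the summed TPM of the members held by NMD-annotated transcripts was 0.728% ± 0.0825 in SCR, 0.658% ± 0.110 after DHX34 depletion and 0.779% ± 0.0675 after UPF1 depletion (SD, n = 3). The differences from SCR of -0.0700 and 0.0505 percentage points each had an exact two-sided permutation p of 0.5, where 3 libraries against 3 cannot go below 0.1. The groups overlapped.

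Some isoforms differed without overlap but were not called, and 3 are given here, chosen after their values were seen. TXNRD1-202, a shorter coding isoform with the same UGA placement as TXNRD1-201, was at 4.71, 7.19 and 6.77 TPM in SCR, 18.6, 20.9 and 23.5 after DHX34 depletion and 15.4, 17.4 and 16.7 after UPF1 depletion. On the log2 scale it changed by 1.59 (SE 0.16, adjusted p by edgeR 0.0123) and by 1.16 (SE 0.16, adjusted p by edgeR 0.00716), neither of which passed. Its share of TXNRD1 TPM was 5.59% ± 1.06 in SCR, 15.1% ± 1.22 after DHX34 depletion and 12.2% ± 0.718 after UPF1 depletion (SD, n = 3).

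SELENOS-201, which has an extra junction 13 bases after the UGA, was at 1.712, 1.4997 and 1.541 TPM in SCR, 1.76, 1.09 and 1.80 after DHX34 depletion and 4.22, 3.74 and 3.63 after UPF1 depletion. It was higher in every UPF1 knockdown library than in any other library, with a log2 fold change against SCR of 1.03 (SE 0.15, edgeR adjusted p 0.0101). SELENOT-205, a coding isoform for which no UGA is annotated, was at 8.59, 6.66 and 5.12 TPM in SCR, 12.5, 11.2 and 11.0 after DHX34 depletion and 11.2, 13.9 and 13.6 after UPF1 depletion. Its log2 fold changes were 0.61 (edgeR adjusted p 0.214) and 0.68 (edgeR adjusted p 0.102).

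**Figure D4:**
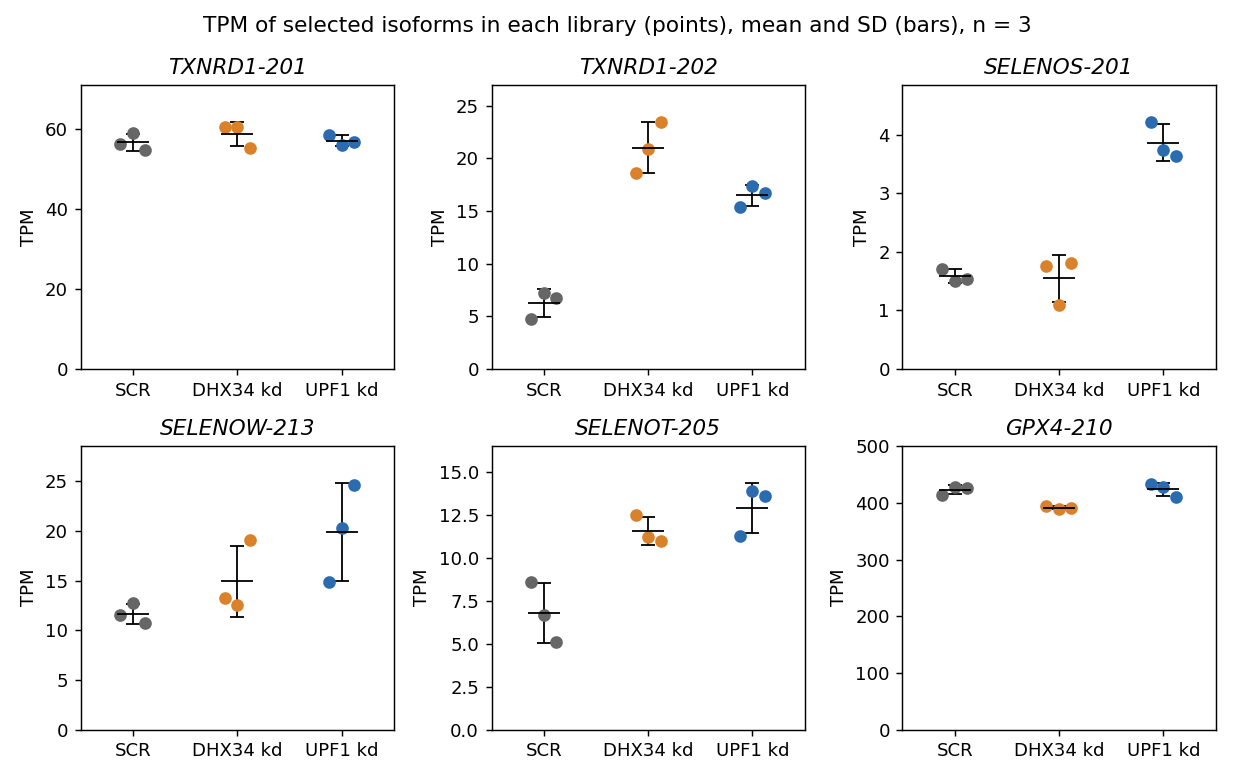
TPM of 6 isoforms in each library (points) with group mean and SD (bars, n = 3) and axes starting at 0, in SCR, DHX34 knockdown and UPF1 knockdown. TXNRD1-202 lies at 4.71 to 7.19 TPM in SCR and at 15.4 to 23.5 TPM in both knockdowns, SELENOS-201 stands apart only in the UPF1 knockdown at 3.63 to 4.22 TPM, and SELENOW-213, a retained intron transcript, at 10.7 to 12.7 TPM in SCR, overlaps between groups in part.

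The genes around the members were counted from lists, and their counts are to be read beside the shares of all genes called. Of all genes tested, 12.4% were called up and 12.9% down in the UPF1 knockdown, and 5.54% and 4.86% in the DHX34 knockdown. In the direct comparison 9.89% were called higher and 7.47% lower in the UPF1 knockdown. Of the 15 other selenoprotein genes 9 were tested. In the UPF1 knockdown SELENON, an ER protein linked to muscle disease, was called up at 0.56 on the log2 scale, and SELENOM and the methionine sulfoxide reductase MSRB1 were called down at -1.11 and -0.38. None was called in the DHX34 knockdown by the main edgeR fit, where MSRB1 was at 0.30 (adjusted p 0.00533). MSRB1 was called up there with the length offsets, with DESeq2 and on uncentred TPM, and SELENON with DESeq2. None was called with length-scaled counts or on centred TPM. In the direct comparison SELENON was higher and SELENOM and MSRB1 were lower in the UPF1 knockdown.

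Of 11 factors of selenocysteine synthesis and insertion, all tested, 2 rose and 2 fell in the UPF1 knockdown. Over all genes these shares were 12.4% and 12.9%. SCLY, which releases selenium from selenocysteine, rose by 0.37 and SEPSECS, which makes selenocysteinyl-tRNA, by 0.26. SEPSECS was not called with length-scaled counts, with the length offsets or on either TPM scale. SCLY was not called with length-scaled counts or on centred TPM. RPL30 and NCL, both known to bind SECIS elements, were at -0.35 and -0.22. RPL30 was the only one called in the DHX34 knockdown, at -0.32, a call lost with the length offsets and on TPM. SECISBP2 was called by edgeR in neither comparison with SCR, at 0.14 (edgeR adjusted p 0.0235) and -0.11 (edgeR adjusted p 0.139), but was higher in the UPF1 knockdown than in the DHX34 knockdown by 0.26 (edgeR adjusted p 0.00123). On uncentred TPM SECISBP2 was called up in the UPF1 knockdown (limma).

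Among the 23 tested of 24 thioredoxin and glutathione partners, 5 rose and 13 fell in the UPF1 knockdown. Over all genes 12.4% rose and 12.9% fell. TXNIP, the inhibitor of thioredoxin, rose by 0.96, and the cystine transporter subunit SLC7A11 by 0.57. The median of this list was -0.21, against 0.02 for all genes. These directions depend on the scale. On uncentred TPM 7 were called up and 1 down with a median of 0.03, where all genes shifted by 0.17 (limma). On centred TPM 3 were up and 13 down, where all genes shifted by -0.12 (limma). With DHX34 depleted none rose and 4 fell, namely GLRX2, SOD1, TXN and PRDX1, and TXN, the substrate of TXNRD1, was at -0.32 there and at -0.33 in the UPF1 knockdown. On uncentred TPM 3 rose and 1 fell with DHX34 depleted. Of 5 tested relatives of selenoproteins that lack selenocysteine, MSRB2 fell in the UPF1 knockdown, at -0.68, and none was called in the DHX34 knockdown.

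Of 11 partners of SELENOS and SELENOK at the ER, 3 rose in the UPF1 knockdown, SEL1L, NPLOC4 and ZDHHC6, and VCP fell. Over all genes 12.4% rose and 12.9% fell. ZDHHC6 was not called with DESeq2, with the length offsets or on centred TPM. SEL1L was not called with length-scaled counts or on either TPM scale. VCP was not called with length-scaled counts or on uncentred TPM. NPLOC4 was called in each of these settings. SEL1L, NPLOC4 and SYVN1 were called up in the DHX34 knockdown and none down, and these 3 calls were lost with the length offsets. Of the NMD factors listed as under feedback by the pathway, SMG1, SMG5, SMG6, UPF2 and UPF3B rose in the UPF1 knockdown, by 0.23 to 0.62 on the log2 scale. None of these 5 was called in the DHX34 knockdown by edgeR (SMG1 was at 0.21 with an adjusted p of 0.0308), and in the direct comparison all 5 were higher in the UPF1 knockdown. With length-scaled counts SMG6 and UPF3B were not called.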

How the data were processed

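Poly(A) RNA of 9 K562 libraries was analysed, 3 each for SCR, DHX34-kd and UPF1-kd. The authors quantified reads with Salmon against Ensembl transcripts on GRCh38, and the deposited tables give expected counts (estimated counts per transcript) and TPM. The deposited tables of sleuth and SUPPA2 comparisons hold the authors' own effects, p-values and splicing differences, and were not used. Transcripts were joined by identifier to GENCODE 44 (97.9% of 203027 matched), whose codon and junction positions are given here and whose transcript lengths can differ from those the authors used. Counts were summed per gene, rounded, filtered by filterByExpr (minimum count 10) and tested with edgeR 4.0.16 (R 4.3.3) on the 6 libraries of each comparison, adjusted over all genes. DESeq2 1.42.0 and limma 3.58.1 on log2(TPM + 0.5) were alternatives, and median-centred TPM was added after seeing the data. The gene length offsets came from a loess of each library's log2 ratio to the mean against gene length. In simulated data for the UPF1 comparison (16841 genes tested) 200 genes were given a change, far fewer than the 4345 called in the data. There edgeR called 59.2% of genes changed 2-fold up or down (log2 of 1) and 44.9% of those changed by 0.5 (log2). It made 4 false calls. Recovery with as many changed genes as in the data was not tested. Of transcripts changed by 3 on the log2 scale 29.7% were called (57930 tested). Groups came from the labels. All 10 genes are named, and isoforms that were called, most abundant in their gene or annotated as NMD substrates with at least 1 TPM. Listed genes are named up to 3 per list and comparison at 5 CPM or more. Further listed genes and markers named (SELENOM, under 5 CPM, among them), and values of SECISBP2, MSRB1 and SMG1 in comparisons that did not call them, were chosen after their values were seen. The members and lists were chosen with earlier results of these data known. Some results are not reported here.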

Additional observations from a re-analysis of the deposited data

How the results depend on the processing

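The numbers of member genes called in the UPF1 knockdown, the DHX34 knockdown and the direct comparison (5, 3 and 4) moved by over 1.5 times in 1 of 18 settings each: to 3 with length-scaled counts, to 1 with the replicate block and length offsets, and to 8 at an adjusted p of 0.05. Leaving out 1 library gave 5, 2 to 3, and 4 to 6. On TPM with a pseudocount of 0.5 the directions moved, although the totals in the comparisons with SCR did not. The UPF1 knockdown had 5 members up and 0 down there, and the DHX34 knockdown 2 up and 1 down. The calls over all genes (4345, 1768 and 3026) became 2749, 789 and 1638 with length-scaled counts, 2881, 631 and 1167 on centred TPM and 6917, 4403 and 5691 at 0.05. On TPM with pseudocounts of 0.5 and 1 the DHX34 comparison gave 879 and 805 and the direct one 1441 and 1431. The DHX34 comparison also gave 3015 with DESeq2 and 3396 without a filter. Leaving out 1 library gave 3187 to 3733, 781 to 1785 and 1915 to 3865. The cause of these shifts was not tested. The 1 member transcript called in the UPF1 knockdown became 11 with DESeq2, 3 on TPM, 8 at 0.05 and 0 to 0 without any 1 library. In the DHX34 knockdown the 0 became 4 with DESeq2 and 3 at 0.05.

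Some values changed sign. In the UPF1 knockdown SELENOS was at -0.0054 with DESeq2, -0.025 with upper quartile scaling, -0.0020 with length-scaled counts, -0.076 on centred TPM, and -0.019 to 0.023 without 1 library, where -0.0097 came without SCR replicate 1. On uncentred TPM SELENOS was called up. TXNRD1 was at 0.062 with length-scaled counts and at 0.28 on TPM with either pseudocount, the latter a call. With the length offsets TXNRD1 was called down. TXNRD1-201 was at 0.012 on TPM and at 0.052 on TPM in the DHX34 knockdown. In the DHX34 knockdown TPM with either pseudocount gave 0.11 for SELENOT, 0.040 and 0.039 for SELENOS and 0.13 for TXNRD2, and centred TPM -0.012 for SEPHS2. The NMD-annotated share differed in the DHX34 knockdown by 0.154 points as a share of counts and by 0.635 with retained introns added, and by -0.127 to -0.0163 without 1 library. In the UPF1 knockdown it was 0.00521 to 0.0892 without 1 library.

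Replicate numbers did not pair the samples: deviations of same-numbered libraries correlated from -0.389 to 0.279. With the replicate block the calls over all genes in the DHX34 comparison were 1007, and 568 with length offsets too, and the member transcript count in the UPF1 knockdown was 0. The block made SELENOW a call in the UPF1 knockdown (0.15, edgeR adjusted p 0.00382) and GPX4 in the DHX34 knockdown missed it (-0.26, edgeR adjusted p 0.00528). Precision is limited by 3 libraries a group, and GPX1 by its depth.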
